A study of Oryza sativa Indica Group with 8 samples.

Results

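Cht1 (LOC4338719) and OsChia4a (LOC4336265) are 2 chitinase genes of rice, and their transcripts were measured in roots of rice seedlings (Oryza sativa, Indica Group) deprived of phosphorus (P), of iron (Fe) or of both. The genes were taken by their locus numbers in the probe table used here, which gives 1 probe set to each, so 2 of 17905 genes and 2 of the 57194 probe sets analysed are described. Both were chosen because earlier work on these same arrays had shown how their levels ran over the groups. Their levels and differences are therefore a description, with no test of either gene.

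The 4 groups, with 2 Affymetrix arrays each, were the combined deficiency (no P and no Fe), Fe deficiency, P deficiency and a control labelled P+. The labels give no doses and do not say whether both arrays of a group stem from separate cultures. P-values of the other genes therefore reflect only the variation between arrays, part or all of which may be technical. Treatment lasted 7 days per the design text, and the protocols mention 10 days in hydroponic culture and seedlings aged 5 days, with no account of how these times join. All samples are whole roots, in which fewer cells of a type and less transcript per cell cannot be told apart.

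Chitinases cut chitin, the polymer of N-acetylglucosamine that stiffens the walls of fungi and the cuticle of insects, and that plants do not make in their own walls. Plants secrete them or store them in vacuoles, and many are made in larger amounts after infection. The chitin fragments they release are bound by LysM receptors at the cell surface, which set off further defence responses. Plant chitinases are grouped in classes by their protein domains. The names beginning with Chia belong to the family of glycosyl hydrolases that includes the classical basic chitinases, and those beginning with Chib to another family with a different fold. In rice, several members are induced by fungal attack and by defence hormones.

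The names call for care. LOC4338719 is listed as Cht1 and as Cht9, and a second locus, OsChia1a (LOC4342115) on chromosome 6, also lists Cht1 among its names. Here Cht1 means LOC4338719 throughout. In the RefSeq gene table of the japonica assembly ASM3414082v1, LOC4338719 lies on chromosome 5 between the chitinase genes OsChia1b (LOC4338718) and OsChia1d (LOC4338720). OsChia4a, also listed as Cht5, lies on chromosome 4, and the third gene before it in that table is another chitinase gene, OsChia2b (LOC4336263). Where the Indica sequence departs from the one the probes were designed on, a probe set can read too low.

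Values of genes below are quantile-normalized array intensities, which have no unit, and a difference is on the log2(intensity + 16) scale. An SE is the moderated one of the limma fit, which draws the spread of each probe set toward a value shared by all probe sets. It is therefore not the spread of the gene's own arrays alone. Each array had a median of 57.7 over its probe sets after normalization. No detection calls came with the values, so a level below that median is not shown to lie above background. Levels of different genes are not compared as amounts of transcript, because each probe set has its own response. The percentiles given below place the intensity of a probe set within its array only.

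Cht1 was bright on every array and lay higher in each deficiency than in the control. Its intensity was 3197 and 2918 in the combined deficiency, 2422 and 2401 in Fe deficiency, 1472 and 1468 in P deficiency, and 784 and 783 in the control. The groups did not overlap, and both arrays of a group lay close together except in the combined deficiency, where the spread was widest. The means were 3058 ± 197 in the combined deficiency, 2412 ± 14.7 in Fe deficiency, 1469.8 ± 2.66 in P deficiency and 784 ± 0.472 in the control (SD, n = 2 each). On this scale the order from high to low was combined, Fe, P and control on every array, as for 0.0857% of probe sets. That share rests on the scaling, because with median-centred arrays the combined deficiency lay below Fe deficiency (log2 difference -0.10). All 6 deficiency arrays lay above both control arrays, as for 5.61% of probe sets.

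Against the control, the log2 difference of Cht1 was 1.94 (SE 0.13) in the combined deficiency, a 3.84-fold higher level on the scale used. Both arrays of the combined deficiency lay above both controls, as for 23.5% of probe sets. In Fe deficiency the difference was 1.60 (SE 0.13), or 3.04-fold, with both arrays above both controls, as for 18.8% of probe sets. In P deficiency it was 0.89 (SE 0.13), or 1.86-fold, with both arrays above both controls, as for 24.3% of probe sets. These 3 comparisons share the control arrays. With median-centred arrays in place of quantile normalization, the differences were 1.56, 1.65 and 0.59 in the same order.

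Between the deficiencies, Cht1 in the combined deficiency exceeded P deficiency by 1.05 (SE 0.13), or 2.07-fold, and both its arrays lay higher, as for 20.3% of probe sets. Over Fe deficiency the difference was 0.34 (SE 0.13), or 1.26-fold, again with both arrays higher, as for 24.4% of probe sets. That smaller difference depended on the scaling, since it was -0.10 with median-centred arrays, so no order of the combined deficiency and Fe deficiency can be given for Cht1. Withdrawal of Fe made a difference of 1.60 where P was supplied and 1.05 where it was not, and the second less the first was -0.55 (SE 0.18).

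OsChia4a was dim, and only its Fe deficiency arrays lay above the array median. Its intensity was 27.0 and 1.77 in the combined deficiency, 132 and 156 in Fe deficiency, 35.0 and 33.7 in P deficiency, and 33.0 and 34.0 in the control. Fe deficiency stood apart, P deficiency and the control overlapped, and the arrays of the combined deficiency lay below all others but far from each other. The means were 14.4 ± 17.8 in the combined deficiency, 144 ± 16.9 in Fe deficiency, 34.3 ± 0.940 in P deficiency and 33.5 ± 0.737 in the control (SD, n = 2 each). Both Fe deficiency arrays lay above all 6 other arrays, as for 6.08% of probe sets.

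Ranked among all probe sets of an array, OsChia4a lay at percentiles 35.2 and 3.34 in the combined deficiency, 61.4 and 63.2 in Fe deficiency, 40.1 and 39.4 in P deficiency, and 39.0 and 39.6 in the control. Cht1 lay between percentiles 93.8 and 94.4 in the combined deficiency, at 92.4 and 92.3 in Fe deficiency, near 87.6 in P deficiency and at 80.6 in the control. Cht1 was thus among the brighter probe sets in all 4 groups, and OsChia4a was in the brighter part of an array in Fe deficiency alone.

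**Figure D1:**
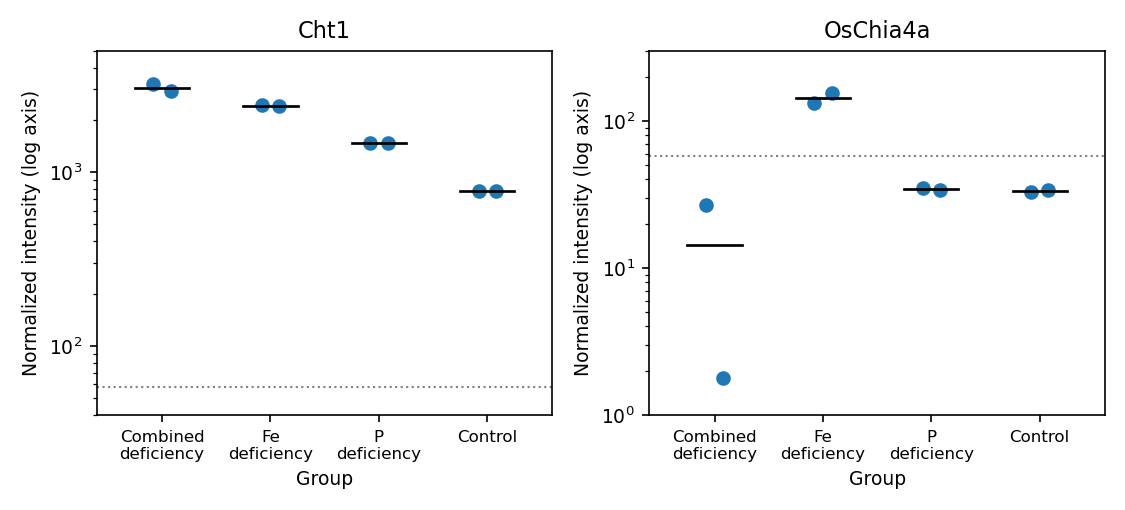
Normalized intensity (log axis) of Cht1 (left) and OsChia4a (right) on each array, with groups on the horizontal axis; points are single arrays, bars are group means (n = 2) and the dotted line is the array median of 57.7. Cht1 lies above the median on all arrays, with the control lowest at 784 and 783, whereas OsChia4a lies above it on the Fe deficiency arrays only, at 132 and 156.

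For OsChia4a, the log2 difference from the control was 1.68 (SE 0.40) in Fe deficiency, or 3.21-fold on the scale used, where adding 16 understates the change of dim genes. The plain ratio of the 2 group means was 4.29. In P deficiency the difference was 0.02 (SE 0.40), and the groups overlapped. In the combined deficiency it was -0.84 (SE 0.40), and both arrays lay below both controls, as for 25.9% of probe sets. The SE of OsChia4a is larger than that of Cht1, and so is the residual SD of its own arrays (0.457 against 0.0466). On the log2 scale the spread of OsChia4a came mainly from the combined deficiency, where the arrays differed by more than in any other group.

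The combined deficiency lay below Fe deficiency by 2.53 on the log2 scale (difference -2.53, SE 0.40) for OsChia4a, with both arrays lower, as for 27% of probe sets. Against P deficiency the difference was -0.86 (SE 0.40), with both arrays lower, as for 21.5% of probe sets. Without combined deficiency replicate 2, the array at 1.77, the differences were -1.91 from Fe deficiency, -0.23 from P deficiency and -0.20 from the control. Without replicate 1 they were -3.15, -1.49 and -1.47. Either array of the combined deficiency therefore lay well under the Fe deficiency arrays, whereas the distance from P deficiency and the control was set by 1 array and by levels not shown to be above background.

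For OsChia4a the difference made by withdrawal of Fe was 1.68 where P was supplied and -0.86 where it was not, the second between levels not shown to be above background, and the second less the first was -2.55 (SE 0.57), a value that was not tested. It was -1.93 without combined deficiency replicate 2 and -3.17 without replicate 1. For Cht1 both withdrawals went with a higher level. Over the 8 arrays, the log2 values of the 2 genes had a Pearson correlation of 0.06, given as a description of arrays that share 4 treatments.

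**Figure D2:**
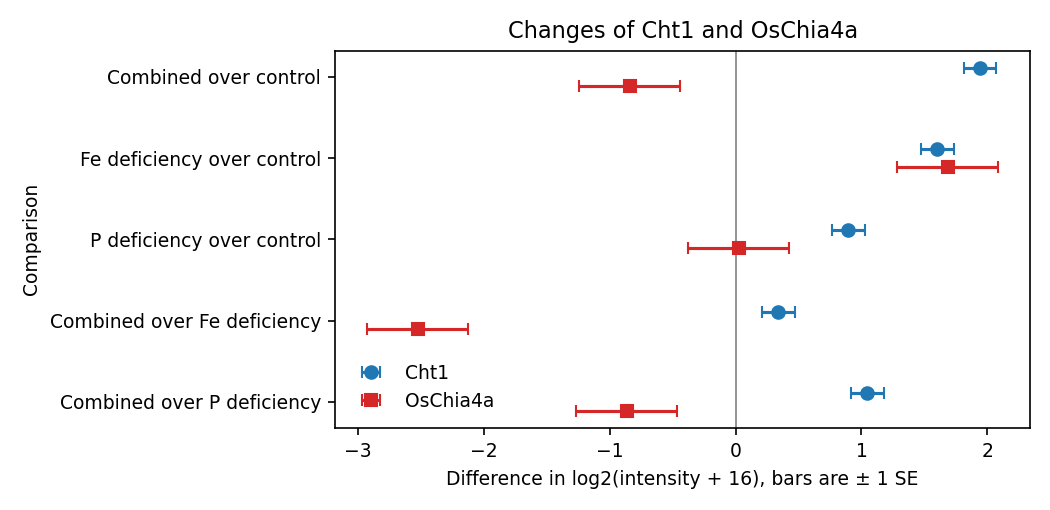
Difference in log2(intensity + 16) on the horizontal axis for the comparisons named on the vertical axis; circles are Cht1, squares are OsChia4a and bars are 1 SE on each side. Cht1 lies right of 0 in all of them (with median-centred arrays, left of 0 at -0.10 for the combined over Fe deficiency), while OsChia4a lies right of 0 at 1.68 in Fe deficiency, at 0.02 in P deficiency and left of 0 wherever the combined deficiency is set against another group.

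The other chitinase genes were taken by name from the gene table, which gave 14, of which 12 had a probe set. These 12 were tested with limma, each by its brightest probe set, with the Benjamini-Hochberg adjustment over all 57194 probe sets and a threshold of 0.05. In the combined deficiency 1 of 12 passed and was higher, where 3.85% of all probe sets passed, and the median difference from the control was -0.09, against -0.02 over all probe sets. In Fe deficiency 0 of 12 passed in limma, where 0.124% of all probe sets passed. An unadjusted p below 0.05 was found for 5 of 12, where 8.33% of all probe sets had one. Of the 12, 10 were higher and 2 lower than the control, with a median of 0.32 against -0.01. In P deficiency 2 of 12 passed, both lower, where 8.28% of all probe sets passed, and the median was -0.35 against -0.02. Compared with P deficiency, 0 of 12 passed in the combined deficiency in limma, where 0.0315% of all probe sets passed. There 4 of 12 had an unadjusted p below 0.05, where 10.2% of all probe sets did, and 11 of 12 were higher (9 with median-centred arrays). Compared with Fe deficiency, 1 of 12 passed in the combined deficiency and was lower, where 2.26% of all probe sets passed, and 3 were higher and 9 lower, with a median of -0.29 against -0.01. For the interaction 0 passed in limma, where 0.0402% of all probe sets passed, and 0 had an unadjusted p below 0.05, where 8.76% did. The counts higher and lower in the combined deficiency against the control, 6 and 6, became 5 and 7 with median-centred arrays. They were 7 and 5 on the deposited values without further normalization.

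The gene sharing a name with Cht1 behaved otherwise in P deficiency. OsChia1a, a classical chitinase, read 1135 and 1203 in the combined deficiency, 2822 and 3146 in Fe deficiency, 710 and 658 in P deficiency, and 1530 and 1315 in the control. The Fe deficiency arrays were highest, the P deficiency arrays lowest, and no groups overlapped. It fell in P deficiency by 1.04 on the log2 scale (SE 0.15, limma adjusted p = 0.0188). In Fe deficiency it was 1.06 above the control (SE 0.15, limma adjusted p = 0.104), short of the threshold. Its level fell in the combined deficiency compared with Fe deficiency, with a difference of -1.34 (SE 0.15, limma adjusted p = 0.0286). Beside Cht1 it is thus also above the control on both Fe deficiency arrays, as for 18.8% of probe sets. On both P deficiency arrays it lies below the control, as for 26.4% of probe sets, where Cht1 lies above.

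Rcb4 (LOC4348631), a chitinase gene on chromosome 10, read 849 and 1013 in the combined deficiency, 1197 and 1215 in Fe deficiency, 325 and 441 in P deficiency, and 742 and 698 in the control. P deficiency had its lowest arrays and Fe deficiency its highest, with no overlap. Both P deficiency arrays lay below both controls, as for 26.4% of probe sets, and both Fe deficiency arrays above, as for 18.8%. It fell in P deficiency by 0.90 on the log2 scale (SE 0.19, limma adjusted p = 0.0486). Its differences of 0.73 in Fe deficiency (limma adjusted p = 0.346) and 0.36 in the combined deficiency (limma adjusted p = 0.385) did not pass.

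Cht11 (LOC4331519) was the gene that rose in the combined deficiency, with a difference of 0.91 from the control (SE 0.13, limma adjusted p = 0.0302). It read 730 and 693 in the combined deficiency, 437 and 425 in Fe deficiency, 479 and 520 in P deficiency, and 370 and 373 in the control. All deficiency arrays lay above the controls, as for Cht1 and for 5.61% of probe sets, but P deficiency lay above Fe deficiency. With median-centred arrays its difference was 0.59 (limma adjusted p = 0.114). These chitinase calls became fewer or none with any 1 array left out, also where that array was in neither group compared. Calls over all probe sets became fewer too, so a lost call does not show that a difference rested on 1 array.

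OsChia2a (LOC4349267) has 3 probe sets, which disagreed on the test. The brightest, with group means from 5176 in P deficiency to 8070 in Fe deficiency, did not pass in any comparison. The second fell in P deficiency by 0.92 on the log2 scale (SE 0.15, limma adjusted p = 0.0234). It read 631 and 714 there and 1275 and 1285 in the control, both arrays below both controls, as for 26.4% of probe sets. That probe set was also lower in the combined deficiency than in Fe deficiency, with a difference of -1.23 (SE 0.15, limma adjusted p = 0.0308). The third was below the array median on all arrays and did not pass.

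The chitinase genes that lie near the 2 genes gave little signal. OsChia1d, next to Cht1, read between 2.11 and 5.52 on all arrays, which is not shown to be above background, and OsChia1b on the other side has no probe set in the table. OsChia2b, near OsChia4a, read 1.39 and 1.45 in the combined deficiency, 23.9 and 14.8 in Fe deficiency, 1.48 and 1.23 in P deficiency, and 2.77 and 9.07 in the control. Its Fe deficiency arrays were the highest, as for OsChia4a, but all lay below the array median, and its difference of 0.69 in Fe deficiency did not pass (limma adjusted p = 0.423).

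The remaining chitinase genes did not pass in any comparison. By their brightest probe sets they ran from -0.66 (chitinase LOC4351188) to 0.48 (Cht6) in Fe deficiency against the control. In P deficiency they ran from -1.07 (Chib3H-h) to 0.70 (chitinase LOC4351188). For OsChia1c the choice of probe set matters. Its brightest gave -0.18 in the combined deficiency, 0.47 in Fe deficiency and -0.34 in P deficiency. Its dimmer gave 0.48, 0.57 and 0.13 in the same order, and neither passed. RIXI (LOC4351194), a chitinase-like protein that inhibits xylanases, was lower than the control in all 3 deficiencies, at -0.62 in the combined deficiency, -0.49 in Fe deficiency and -0.62 in P deficiency. Cht10 (LOC4325148) was higher in all 3, at 0.54, 0.36 and 0.44.

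**Figure D3:**
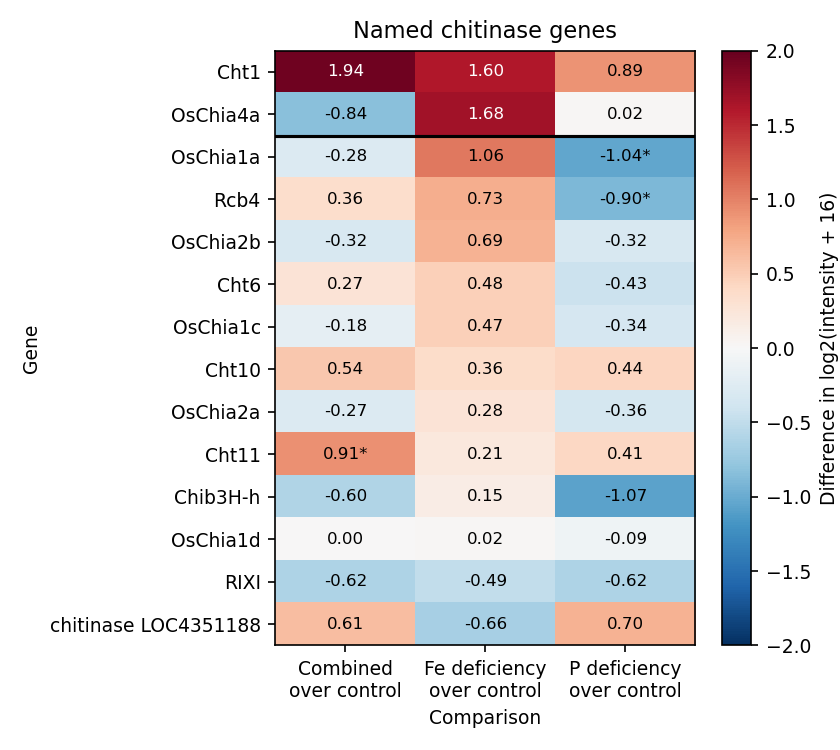
Differences from the control in log2(intensity + 16) for Cht1 and OsChia4a (above the line) and 12 other named chitinase genes (below it, ordered by their Fe deficiency difference), with columns for the 3 deficiencies; colour gives the difference and an asterisk marks an adjusted p under 0.05 among the 12, the first 2 genes carrying no test. In Fe deficiency 10 of the 12 are above 0 and none passed, in P deficiency OsChia1a and Rcb4 fell, and Cht11 rose in the combined deficiency.

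Of 8 measured genes of chitin perception and its early signalling, 0 passed in limma in Fe deficiency (1 at an unadjusted p below 0.05), where 0.124% of all probe sets passed and 8.33% had such a p, so the count is near the background. The chitin-binding receptor gene OsCEBiP (LOC4331522) differed from the control there by 0.01 and the receptor kinase gene OsCERK1 (LOC4346173) by 0.00. In P deficiency 1 rose and 1 fell, where 4.23% of all probe sets rose and 4.05% fell. LYP4 (LOC4347230), which encodes a LysM protein that binds chitin and peptidoglycan, rose by 1.74 (SE 0.13, limma adjusted p = 0.00648). Its group means were 725 in the combined deficiency, 239 in Fe deficiency, 1136 in P deficiency and 329 in the control. It also rose in the combined deficiency, 2.15-fold against the control (limma adjusted p = 0.0212) and 2.91-fold against Fe deficiency (limma adjusted p = 0.0198). With median-centred arrays its adjusted p against the control was 0.0627. OsMPK3 (LOC4332475), a MAP kinase gene of defence signalling, fell in P deficiency by 0.86 on the log2 scale (SE 0.16, limma adjusted p = 0.0335). The call of OsMPK3 and those of LYP4 in the combined deficiency were lost with any 1 array left out, and that of LYP4 in P deficiency without P deficiency replicate 1 or 2.

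PBZ1, a pathogenesis-related gene of the PR10 class, averaged 14717 in the combined deficiency, 17796 in Fe deficiency, 8676 in P deficiency and 9606 in the control. Its differences of 0.62 in the combined deficiency (limma adjusted p = 0.0878) and 0.89 in Fe deficiency (limma adjusted p = 0.141) did not pass. A list for salicylate and jasmonate synthesis and signalling had 36 measured genes. It includes OsGATA17, OsGATA18, OsGATA20 and OsTIFY8, which carry TIFY names but no JAZ name. Of the 36 genes, 4 fell in the combined deficiency against the control, where 1.78% of all probe sets fell. In Fe deficiency 0 passed in limma, where 0.124% of all probe sets passed, and 4 had an unadjusted p below 0.05, where 8.33% did. In P deficiency 1 rose and 7 fell, where 4.23% of all probe sets rose and 4.05% fell. The largest falls in P deficiency were those of OsWRKY71 (-1.97), OsJAZ13 (-1.66) and AOS3 (-1.57), of which AOS3 encodes an allene oxide synthase of the jasmonate pathway. In the combined deficiency they were OsJAZ3 (LOC4331832, -1.60), OsJAZ13 (-1.54) and OsWRKY71 (-1.35). The calls of these genes in P deficiency were lost without P deficiency replicate 1 or 2, and those of OsJAZ13 and AOS3 also without control replicate 1. In the combined deficiency that of OsJAZ13 was lost with any 1 array left out, and those of OsJAZ3 and OsWRKY71 with any array left out other than those of P deficiency. Of 11 ethylene genes, 0 passed in limma in any comparison, with at most 3 at an unadjusted p below 0.05, in P deficiency, where 23.4% of all probe sets had such a p. These counts of ethylene genes are near the background, though their directions were uneven. In P deficiency 3 were higher and 8 lower than the control, with a median of -0.35 against -0.02 over all probe sets. Both arrays lay below both controls for 6 of them, as for 26.4% of probe sets. In the combined deficiency 1 was higher and 10 lower than in Fe deficiency, with a median of -0.21 against -0.01. Both arrays lay lower for 8, as for 27% of probe sets.

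Named genes whose pattern over the 8 arrays was most like that of each member were ranked by Pearson correlation of log2 values, among 2218 candidate genes for Cht1 with a mean above the overall median probe set. These values describe arrays that share 4 treatments and carry no p. A pattern shared with the member follows from the ranking and is no separate result. For Cht1 they were OsNAS1 (0.979), Pi21 (0.962), LTP2-B (0.961), OsMT-I-2b (0.961) and OsNAS2 (0.952). OsNAS1 and OsNAS2 encode nicotianamine synthases of the iron uptake pathway, and OsMT-I-2b a metallothionein. OsNAS1 averaged 24482 in the combined deficiency, 25049 in Fe deficiency, 14637 in P deficiency and 8097 in the control. It thus shared with Cht1 the lowest level in the control and the next lowest in P deficiency, while for OsNAS1 the means of the combined deficiency and Fe deficiency were almost equal.

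For OsChia4a, among 2219 candidates, they were OsWNK7 (0.982), URH1 (0.947), BSL2 (0.922), OsGBSS1 (0.919) and LOGL3 (0.917). OsWNK7, of the WNK kinase family, averaged 88.8 in the combined deficiency, 257 in Fe deficiency, 117 in P deficiency and 123 in the control. OsGBSS1, a granule-bound starch synthase gene, averaged 35.0, 115, 60.2 and 38.4 in the same order. Fe deficiency was highest in all 5, and the combined deficiency lowest, as follows from their choice by likeness to OsChia4a over these same arrays.

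**Figure D4:**
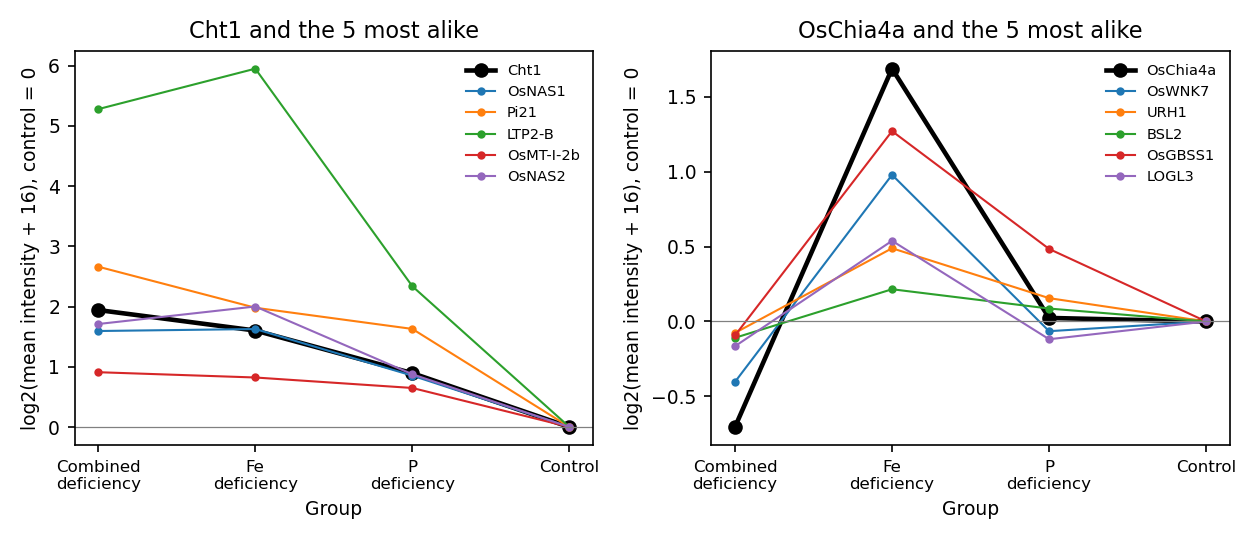
Group means as log2(mean intensity + 16) relative to the control (vertical axis) over the groups (horizontal axis) for Cht1 (left, black) and OsChia4a (right, black) and the 5 named genes most alike to each over 8 arrays. The Cht1 set is above the control in every deficiency, and the OsChia4a set peaks in Fe deficiency and lies under the control in the combined deficiency. Each set was chosen by likeness over these same arrays, so the shared pattern follows from the choice.

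Whole-series checks ran as follows. Of 7 phosphate starvation genes, 6 rose in the combined deficiency, 0 in Fe deficiency and 7 in P deficiency against the control. Of 5 genes of Fe uptake and its regulation 3, 2 and 3 rose in the same order, with 1 falling in P deficiency. Of all probe sets 2.07% rose in the combined deficiency, 0.105% in Fe deficiency and 4.23% in P deficiency. All 6 measured root markers were above the array median in every group, with Lsi1 between 16964 and 26951 as group means. The photosynthesis genes set as shoot markers were also bright. The summed level of the 5 measured was 35226 to 37206 in the combined deficiency, 46575 to 50211 in Fe deficiency, 32499 to 33590 in P deficiency and 52608 to 56273 in the control, and 3 of 5 fell both in P deficiency and in the combined deficiency. Of these, RBCS1 lay below the array median in every group. The summed level of the 6 root markers was 24766 to 26494 in the combined deficiency, 35519 to 35956 in Fe deficiency, 24393 to 25553 in P deficiency and 35392 to 38434 in the control. Lsi1 was a large part of that sum, and the 6 went in different directions. In P deficiency 3 were higher and 3 lower than the control. Of these 2 rose and 2 fell past the threshold, where 4.23% of all probe sets rose and 4.05% fell. In the combined deficiency 2 rose and 1 fell. The part of the shoot and root marker levels in the lower levels of OsChia1a and Rcb4 in P deficiency, or in the values of Cht1 and OsChia4a, was not tested. Calls over all probe sets numbered 2200 in the combined deficiency, 71 in Fe deficiency and 4736 in P deficiency against the control, and with any 1 array left out they ran from 5 to 651, from 0 to 10 and from 3 to 2990.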

How the data were processed

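Total RNA of roots was labelled and hybridised to the Affymetrix rice array, with 2 arrays in each of 4 groups. The deposited intensity values are on a linear scale, made by the authors in Affymetrix Expression Console 1.1 per the submitters' processing notes. The method of summarising probe signals is not stated in any source used here. With 2% of values left out at each end, every deposited array had a mean of 500.1. The deposited values thus already share a scale across arrays. Of 57381 probe sets, 123 AFFX and 64 RPTR control probe sets were left out, and 22436 matched exactly 1 gene.

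The remaining 57194 were quantile-normalized, converted to log2(intensity + 16) and fitted with 1 mean per group in limma 3.58.1 under R 4.3.3 (4 residual and 1.74 prior degrees of freedom). This gave 6 contrasts, each adjusted by Benjamini-Hochberg over all probe sets, and was tested on simulated data. Folds are on this scale. The number of arrays limits the precision.

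Cht1, OsChia4a and the gene lists were chosen with earlier results of these data known. The lists were adjusted to the names in the gene table before their values were used. A planned search by protein similarity and for promoter motifs was not run, as no sequences were at hand, so the chitinase genes were taken by name. Each gene was represented by its probe set with the highest mean. Of other lists, at most 3 genes per list and comparison were named by size among those past the threshold, besides genes named for their role after their values were seen (OsCEBiP, OsCERK1, PBZ1, the neighbours, RIXI, Cht10, OsChia2a, Lsi1). Alternatives were median centring, no further normalization, other added constants, a filter on dim probe sets, only the compared groups, a replicate block, a trended prior and 8 fits leaving out 1 array.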

Additional observations from a re-analysis of the deposited data

Results flagged for a closer look

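OsChia4a is given here because its arrays lay on opposite sides in the 2 comparisons that withdraw Fe. Where P was supplied, both Fe deficiency arrays (132 and 156) lay above both control arrays (33.0 and 34.0), as for 18.8% of probe sets. Where P was withheld, both combined deficiency arrays (27.0 and 1.77) lay below both P deficiency arrays (35.0 and 33.7), as for 21.5% of probe sets. The second difference less the first was -2.55 on the log2(intensity + 16) scale. Without combined deficiency replicate 2, the array at 1.77, it was -1.93, and the difference from P deficiency was -0.23 in place of -0.86, so the lower level where P was withheld was set by 1 array. The difference of -2.55 was not tested, because the gene was chosen for its levels in these arrays, and the levels other than those in Fe deficiency lie below the array median.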

How the results depend on the processing

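The replicate numbers did not pair the arrays: the correlation of deviations from the group means over same-numbered arrays ran from -0.0173 to 0.0172. With the replicate number as a block, calls over all probe sets against the control numbered 107 in the combined deficiency, 14 in Fe deficiency and 2385 in P deficiency. The combined deficiency had 0 calls against P deficiency (limma, 5399 with an unadjusted p below 0.05) and 19 against Fe deficiency, and the interaction 0 (4815). Of the other chitinase genes 1 passed in P deficiency under the block and 0 in the combined deficiency against the control or Fe deficiency.

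Calls over all probe sets numbered 4736 in P deficiency against the control, 71 in Fe deficiency, then 2200 in the combined deficiency. The combined deficiency had 18 calls against P deficiency and 1293 against Fe deficiency, and the interaction had 23. In the same order they were 3082, 32, 843, 10, 205 and 6 with 1 added, 7473, 213, 4506, 118, 3614 and 63 with 64 added, 8834, 264, 6071, 241, 5159 and 58 over probe sets above the overall median, and 9121, 417, 6642, 707, 5741 and 355 with a trended prior. Limma fits on the compared groups alone gave 0 in each of the 5 comparisons, with 5009 to 11222 at an unadjusted p below 0.05. Median-centred arrays gave 46 in Fe deficiency and 825 against Fe deficiency, of which 24.8% were higher in place of 60.0%. The share of higher calls moved likewise to 30.9% in place of 51.0% in P deficiency and to 28.6% in place of 53.8% in the combined deficiency. Leaving out 1 array gave 3 to 2990, 0 to 10, 5 to 651, 0 to 8, 2 to 60 and 0 to 5 calls.

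Of the other chitinase genes, 2 passed in P deficiency against the control, 0 in Fe deficiency, 1 in the combined deficiency, which had 0 against P deficiency and 1 against Fe deficiency. With 1 added they were 1, 0, 0, 0 and 0, where 3082, 32, 843, 10 and 205 of all probe sets passed. Over brighter probe sets, which left 10 of the genes, they were 4, 1, 2, 1 and 2. Calls over all those brighter probe sets numbered 8834, 264, 6071, 241 and 5159. With the compared groups alone they were 0 throughout, and with median-centred arrays 0 in the combined deficiency. With 64 added 1 passed in Fe deficiency, where 213 of all probe sets did, and 2 against Fe deficiency, where 3614 did. With a trended prior 1 passed in Fe deficiency, 2 against P deficiency and 3 against Fe deficiency, where 417, 707 and 5741 did. Leaving out 1 array gave 0 to 1 in P deficiency and 0 to 0 elsewhere.

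Cht1 gave, with median-centred arrays, 1.56 in the combined deficiency, -0.10 against Fe deficiency, 0.97 against P deficiency, 1.65 in Fe deficiency, 0.59 in P deficiency and -0.68 for the interaction, while the median of all probe sets moved to -0.14 in the combined deficiency. With 64 added it gave 1.88 and 1.55 in the combined and Fe deficiency, and on the deposited values without further normalization 0.29 against Fe deficiency. Leaving out 1 array gave 1.88 to 2.01, 0.27 to 0.40, 0.98 to 1.11, 1.60 to 1.61 and 0.89 to 0.90 in the first 5 comparisons and -0.63 to -0.49 for the interaction.

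OsChia4a gave, with 1 added, -1.97 in the combined deficiency, -4.03 against Fe deficiency, -2.003 against P deficiency and -4.07 for the interaction. With 64 added these were -0.33, -1.42, -0.35 and -1.43, and 1.09 in Fe deficiency. Leaving out 1 array gave -1.47 to -0.20, -3.15 to -1.91 and -1.49 to -0.23 for the first 3, 1.56 to 1.78 in Fe deficiency and 0.0047 to 0.0429 in P deficiency. The dependence of OsChia4a on the added constant follows from its low signal. The causes of the other shifts were not tested, besides the smaller sets of arrays or probe sets that some settings use.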

Other observations

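Correlations of log2 values over the 8 arrays were taken for the brightest probe sets of the 12 other chitinase genes. With Cht1 they ran from -0.75 (RIXI) to 0.76 (Cht11). With OsChia4a they ran from -0.74 (chitinase LOC4351188) to 0.82 (OsChia2b, below the array median on every array). The brightest probe sets of OsChia1c and OsChia2a each had 0.80 with OsChia4a. The probe sets of OsChia1c disagreed: the brightest had 0.16 with Cht1, whereas the dimmer had 0.77 with Cht1 and 0.28 with OsChia4a. Of the other OsChia2a probe sets, the brighter had 0.72 with OsChia4a. The dimmer, below the array median on every array, had 0.29. These are descriptions over arrays that share 4 treatments.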
